A study of Mus musculus with 40 samples.

Results

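The mitosis genes described here are 42 genes that act as a cell enters, passes through and leaves mitosis. They were taken by gene name from a table of 54532 genes measured in mouse uterus, and all 42 were found in it. The libraries come from prepubertal mice that were treated on postnatal day 25, and the uterus was collected for bulk RNA sequencing 4 h or 24 h later. At each time there were 4 groups of 5 libraries. Vehicle mice had PBS or saline. Doxorubicin mice had 2 weekly doses of the anthracycline doxorubicin at 3 mg/kg, AMH mice had anti-Müllerian hormone at 0.75 mg/kg, and a combined group had both agents. Strain and age at harvest were not stated in the labels. Which of the weekly doxorubicin doses fell on postnatal day 25, and from which dose the hours were counted, is not stated here. Replicate numbers in the labels are biological, with no word on whether a library is 1 mouse or a pool, so p-values measure the spread between these libraries, which may in part be technical.

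Doxorubicin blocks topoisomerase II and breaks DNA. Cells with broken DNA can stop before mitosis, because damage signalling keeps the kinase Cdk1 and its partner cyclin B inactive. AMH is a hormone of the TGF-beta family that makes the Müllerian ducts regress in male embryos and acts through the receptor Amhr2 and SMAD proteins. The transcripts of mitosis genes build up in G2 and mitosis and are scarce in resting cells, because a repressor complex holds their promoters silent until the cell cycle advances and Foxm1 and its partners then activate them. In the uterus, oestrogen is the best known signal that drives epithelial cells to divide.

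The genes were ordered by what they do. Mitotic entry was represented by 7 genes: the cyclins Ccna2, Ccnb1 and Ccnb2, their kinase Cdk1, the phosphatase Cdc25c that activates it, the transcription factor Foxm1 and Cdca3, which helps to remove the Cdk1 inhibitor Wee1. The kinases were 5 (Plk1, Aurka, Aurkb, Melk and Pbk) and the spindle checkpoint 4 (Bub1, Bub1b, Ttk and Mad2l1). The anaphase-promoting complex, the ubiquitin ligase that ends mitosis, was represented by its activator Cdc20 and its E2 enzyme Ube2c. The rest were 5 spindle kinesins (Kif11, Kif15, Kif20b, Kif2c and Kif4), 6 centromere and kinetochore genes (Cenpa, Cenpe, Cenpf, Nuf2, Ndc80 and Spc25), 4 spindle assembly genes (Nusap1, Tpx2, Hmmr and Dlgap5), the passenger complex genes Birc5 and Cdca8, 6 cytokinesis genes (Anln, Ect2, Racgap1, Kif23, Kif20a and Prc1), and Mki67, which codes for Ki-67, the protein that coats mitotic chromosomes.

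The genes whose libraries are given one by one lie at these places on build mm10, with the strand in brackets; values are per gene. The entry genes and Ki-67 are Mki67 (ENSMUSG00000031004) at chr7:135689784-135716361 (minus), Ccnb1 (ENSMUSG00000041431) at chr13:100778650-100786570 (minus), Cdk1 (ENSMUSG00000019942) at chr10:69335146-69352938 (minus) and Ccna2 (ENSMUSG00000027715) at chr3:36564865-36572150 (minus). The kinases are Plk1 (ENSMUSG00000030867) at chr7:122159439-122169873 (plus), Aurkb (ENSMUSG00000020897) at chr11:69045647-69051664 (plus) and Pbk (ENSMUSG00000022033) at chr14:65805837-65817822 (plus). The checkpoint and passenger genes are Bub1 (ENSMUSG00000027379) at chr2:127801122-127831865 (minus), Mad2l1 (ENSMUSG00000029910) at chr6:66535390-66547220 (plus) and Cdca8 (ENSMUSG00000028873) at chr4:124918465-124939311 (minus).

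Values are FPKM (fragments relative to gene length and to the fragments of the library). Whole reads could be rebuilt from them, with totals of 16251563 to 27391049 reads in genes. The median mitosis gene value rested on 242 reads, and 10 of 1680 values rested on fewer than 10, the lowest on 2 reads of Cdc25c. The tissue label was checked against defining markers: all 13 markers of uterine stroma, 10 of 10 of smooth muscle and 10 of 10 of epithelium had a median of at least 1 FPKM, with Hoxa10 at a median of 89.8, Pgr at 49.9 and Esr1 at 45.2 FPKM. Some libraries stood apart. A score of 23 oestrogen-responsive genes (mean log2(FPKM + 1)) exceeded the median score by more than 0.6 in 8 libraries, called high-oestrogen here, among them 24 h vehicle replicates 1, 2 and 4 and 24 h AMH replicate 3. The score of 16 oviduct and ciliated-cell genes exceeded its median by more than 1 in 8 libraries, called high-oviduct. A score of 10 ovary markers did so in 4 libraries, called high-ovary (24 h vehicle replicate 4, 24 h AMH replicate 3, 4 h doxorubicin replicate 4 and 24 h doxorubicin replicate 5). In 3 of those 4, Inha, the inhibin subunit of granulosa cells, was at 93.3 to 99.4 FPKM, and in 24 h vehicle replicate 4 it was at 33.4, against a median of 7.33 over all libraries. The ovary marker Fshr was at 0.240 to 0.770 FPKM in these 4 libraries, and its median over all libraries was 0. Cyp11a1 was at 0.554 to 10.6 FPKM in them (median 0.034), lowest in 24 h AMH replicate 3. Other markers set that replicate apart from the other high-ovary libraries. Amh transcripts were at 0.347 FPKM in it (median 0.274) and at 2.32 to 11.9 in the others. The oocyte marker Gdf9 was at 0.684 FPKM in it (median 0.695) and at 2.99 to 7.26 in the others.

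Transcripts of all 42 genes were measured, at modest levels. The mean over 40 libraries ran from 1.23 FPKM for Ttk, a checkpoint kinase, to 14.6 FPKM for Cdc20, with a median of 4.07. Every mitosis gene passed the filter on low values, which asked for 1 FPKM in at least 5 of 40 libraries. Ttk reached 1 FPKM in 18 libraries, the fewest of the 42. The highest library stood above the lowest by a median of 37.1-fold. For 25 genes the highest library was 24 h vehicle replicate 4, and for the other 17 it was 24 h AMH replicate 3. Both of these libraries are high-oestrogen and high-ovary.

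**Figure D1:**
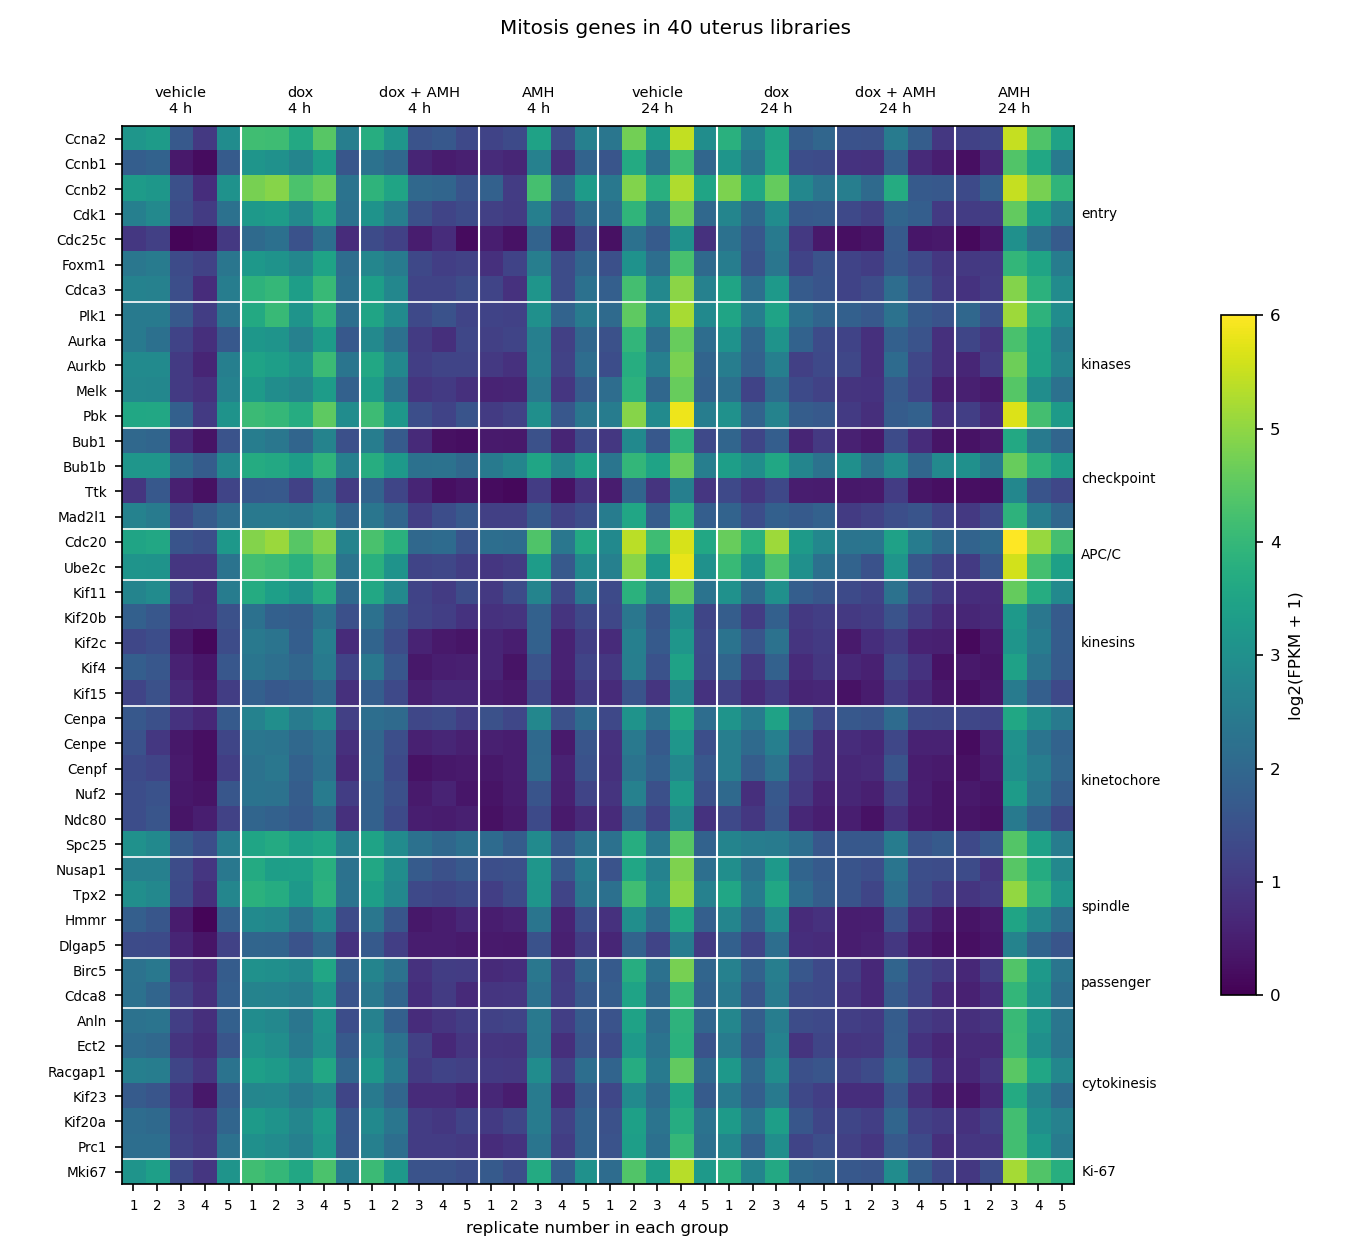
Heat map of log2(FPKM + 1) for the 42 mitosis genes (rows, in blocks by role) in 40 libraries (columns, 5 per group). Whole columns are bright or dark: 24 h vehicle replicate 4 and 24 h AMH replicate 3 are the brightest, and most 24 h columns of doxorubicin with AMH are dark.

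The genes moved together from library to library. After each group mean was taken away, the correlation between 2 mitosis genes over the 40 libraries had a median of 0.96 over 861 pairs (0.72 to 0.99). Correlations of a mitosis gene with genes off the list had a median of -0.03, with the 5th to 95th percentile at -0.47 to 0.50. The points share library and depth, and the value is a description. Mad2l1, the checkpoint protein that holds back Cdc20, followed the others least closely (median correlation 0.84 with them), followed by the checkpoint kinase Bub1b (0.90). Libraries of the same group differed widely. The within-group SD on the log2 scale had a median of 0.86 for the mitosis genes (0.57 for Kif15 to 1.21 for Ccnb2) and of 0.24 for all genes tested, and 35 of 42 mitosis genes lay above the 95th percentile of all genes (0.69).

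The same library tended to be highest for every gene of a group. In the 4 h combined group, replicate 1 was the highest for 42 of 42 genes, and the same held for 4 h AMH replicate 3, 24 h vehicle replicate 4 and 24 h AMH replicate 3. The lowest 4 h doxorubicin library was replicate 5 for 42 of 42 genes. The group mean was highest in 24 h vehicle for 32 genes, in 4 h doxorubicin for 7 and in 24 h AMH for 3, and it was lowest in the 24 h combined group for 41 genes. Summed up as the mean log2(FPKM + 1) of the 42 genes, the groups ran from 1.23 ± 0.38 (SD, n = 5 here and below) in the 24 h combined group, through 1.50 ± 0.69 in 4 h AMH, 1.64 ± 0.84 in the 4 h combined group, 1.67 ± 0.72 in 4 h vehicle, 2.07 ± 0.66 in 24 h doxorubicin, 2.30 ± 1.43 in 24 h AMH and 2.67 ± 1.07 in 24 h vehicle, to 2.75 ± 0.61 in 4 h doxorubicin. Neighbours in that order differed by less than their SDs. In bulk tissue, fewer dividing cells and less RNA per dividing cell cannot be told apart.

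Because the genes moved together, their promoters were read for the elements that are known to bind the cell cycle repressor and activator complexes. RefSeq promoters (build GRCm38.p6, 250 bases before to 50 after the start) were found for 34 of 42 genes, with 36 promoters in all. The cell cycle homology region, or CHR, was searched as TTTGAA or TTCGAA and the CCAAT box as CCAAT, each on both strands. A CHR match stood in 29 of 36 mitosis gene promoters (80.6%), against 19.2% of all 32851 promoters of that length. A CCAAT match stood in 26 (72.2%, against 37.4% of all), and both stood in 24 (66.7%, against 7.52%). Of 38 CHR matches, 29 lay within 50 bases of the start, in 25 genes, and 1 overlapped a CCAAT match. A match is a run of letters and not a measured binding site.

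The 250 bases before the RefSeq start are shown for genes with both elements, Cdk1 (chr10:69352913-69353162, minus strand), Cdc20 (chr4:118437344-118437593, minus), Ube2c (chr2:164769679-164769928, plus), Kif11 (chr19:37376132-37376381, plus) and Mki67 (chr7:135716380-135716629, minus), and for Ccnb1 (chr13:100786487-100786736, minus), which has CCAAT matches alone in this window. They run 5′ to 3′ on the gene's strand, build GRCm38.p6, and capitals mark the CHR (TTTGAA, or TTCAAA where it lies on the other strand) and the CCAAT box (CCAAT, or ATTGG on the other strand).
Cdk1: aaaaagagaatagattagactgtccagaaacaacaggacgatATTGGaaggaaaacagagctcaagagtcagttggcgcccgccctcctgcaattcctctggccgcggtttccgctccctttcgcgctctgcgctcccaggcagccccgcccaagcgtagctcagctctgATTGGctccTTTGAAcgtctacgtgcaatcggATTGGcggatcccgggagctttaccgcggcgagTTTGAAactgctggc
Cdc20: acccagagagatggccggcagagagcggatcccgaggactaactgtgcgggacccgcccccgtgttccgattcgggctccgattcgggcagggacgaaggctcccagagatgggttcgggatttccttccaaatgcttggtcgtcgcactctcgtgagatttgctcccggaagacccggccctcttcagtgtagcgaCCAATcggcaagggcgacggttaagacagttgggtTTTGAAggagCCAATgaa
Ube2c: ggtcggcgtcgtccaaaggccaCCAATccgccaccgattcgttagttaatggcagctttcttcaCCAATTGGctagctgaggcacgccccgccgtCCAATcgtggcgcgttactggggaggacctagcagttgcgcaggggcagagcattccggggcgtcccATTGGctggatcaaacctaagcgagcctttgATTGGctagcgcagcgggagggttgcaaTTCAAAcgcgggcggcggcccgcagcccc
Kif11: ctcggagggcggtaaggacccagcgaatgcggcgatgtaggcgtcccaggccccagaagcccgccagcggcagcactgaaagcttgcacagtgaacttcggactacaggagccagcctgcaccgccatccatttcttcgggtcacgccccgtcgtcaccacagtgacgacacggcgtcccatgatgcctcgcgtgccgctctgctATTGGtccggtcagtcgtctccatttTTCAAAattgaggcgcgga
Mki67: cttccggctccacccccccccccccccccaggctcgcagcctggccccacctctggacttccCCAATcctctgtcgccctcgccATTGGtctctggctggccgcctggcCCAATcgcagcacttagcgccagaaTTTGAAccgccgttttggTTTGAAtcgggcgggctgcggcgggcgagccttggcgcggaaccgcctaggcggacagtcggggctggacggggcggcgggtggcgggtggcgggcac
Ccnb1: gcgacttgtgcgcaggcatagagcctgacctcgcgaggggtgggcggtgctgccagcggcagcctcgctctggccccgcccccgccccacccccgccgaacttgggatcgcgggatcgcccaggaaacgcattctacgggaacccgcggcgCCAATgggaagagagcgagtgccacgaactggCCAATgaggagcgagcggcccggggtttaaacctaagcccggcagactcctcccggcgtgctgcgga

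In Cdc20 the CHR starts 18 bases before the RefSeq start, in Kif11 19 and in Ube2c 29. Cdk1 has CHR matches 71 and 15 bases before its start. In Mki67 the pair of CHR matches lies farther out, 116 and 98 bases before the start. Ube2c has 6 CCAAT matches, of which a pair shares bases. In Ccnb1 the CCAAT matches lie 99 and 67 bases before the start. All these distances are from the RefSeq start. For Cdk1, Ccnb1, Cdc20 and Ube2c that start lies inside the gene as placed by the deposited gene positions, so some matches do too.

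At 4 h, doxorubicin libraries had higher values of the mitosis genes than vehicle in all 42 cases, with a median difference of 1.09 on the log2(FPKM + 1) scale (0.27 to 1.82), but none passed the test across all genes (limma with Benjamini-Hochberg adjustment, threshold 0.05). Unadjusted p was below 0.05 for 20 of the 42, against 5.84% of all genes tested for that direction, and 0.493% of all genes were called either way in this comparison. Over all genes tested, 51.7% were higher and the median was 0.0077. For Mki67, the vehicle values in replicates 1 to 5 were 7.62, 9.47, 1.51, 0.941 and 7.62 FPKM, and the doxorubicin values were 16.9, 15.0, 11.2, 18.6 and 4.72 FPKM. Replicates 3 and 4 of vehicle were low and replicate 5 of doxorubicin lay among the vehicle values, so the groups overlapped, and the difference was 1.34 ± 0.69 (SE; adjusted p = 0.437).

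Ccnb1, the cyclin that carries Cdk1 into mitosis, was at 2.45, 2.70, 0.323, 0.150 and 2.32 FPKM in 4 h vehicle and at 7.78, 7.14, 5.63, 9.28 and 2.05 FPKM in 4 h doxorubicin, a difference of 1.57 ± 0.62 (adjusted p = 0.285). In 4 of 5 doxorubicin libraries Ccnb1 lay above every vehicle library. Cdk1 was at 5.02, 6.13, 1.64, 1.05 and 3.73 FPKM in vehicle and at 8.39, 8.95, 6.10, 11.2 and 3.70 FPKM in doxorubicin, a difference of 1.02 ± 0.53 (adjusted p = 0.442), and replicates 3 and 5 of doxorubicin lay inside the vehicle range. The largest differences of the 42 were those of Ccnb2 (1.82 ± 0.73), Cdc20 (1.73 ± 0.69) and Ube2c (1.68 on the same scale).

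Among the kinases and the checkpoint, Plk1, which activates Cdk1 and builds the spindle poles, was at 4.46, 4.59, 2.18, 1.13 and 3.91 FPKM in 4 h vehicle and at 11.5, 15.6, 7.62, 14.1 and 3.48 FPKM in 4 h doxorubicin (1.38 ± 0.57, adjusted p = 0.316). Aurkb, the kinase of the passenger complex that corrects faulty spindle attachments, had a vehicle median of 5.07 FPKM (0.539 to 6.36) and a doxorubicin median of 9.35 FPKM (4.05 to 16), a difference of 1.28 ± 0.64 (adjusted p = 0.424). Bub1, a checkpoint kinase at the kinetochore, had medians of 1.92 FPKM (0.255 to 3.07) and 4.24 FPKM (1.76 to 5.46), a difference of 0.90 ± 0.53 (adjusted p = 0.505). All 3 had the doxorubicin median above the vehicle median with overlapping ranges. By role, unadjusted p was below 0.05 for 4 of 7 entry genes, 5 of 6 kinetochore genes, 3 of 6 cytokinesis genes, 2 of 4 spindle genes, both genes of the anaphase-promoting complex, 1 of 5 kinases, 1 of 5 kinesins, 1 of 4 checkpoint genes and 1 of the passenger genes, and it was not for Mki67. Cenpa, the histone that marks the centromere, had the lowest adjusted p of the 42 (0.267, difference 1.14 ± 0.43). The median difference of the 42 became 1.13, 0.97 and 0.72 with the high-oestrogen, high-ovary or high-oviduct set left out, and 0 were called each time.

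**Figure D2:**
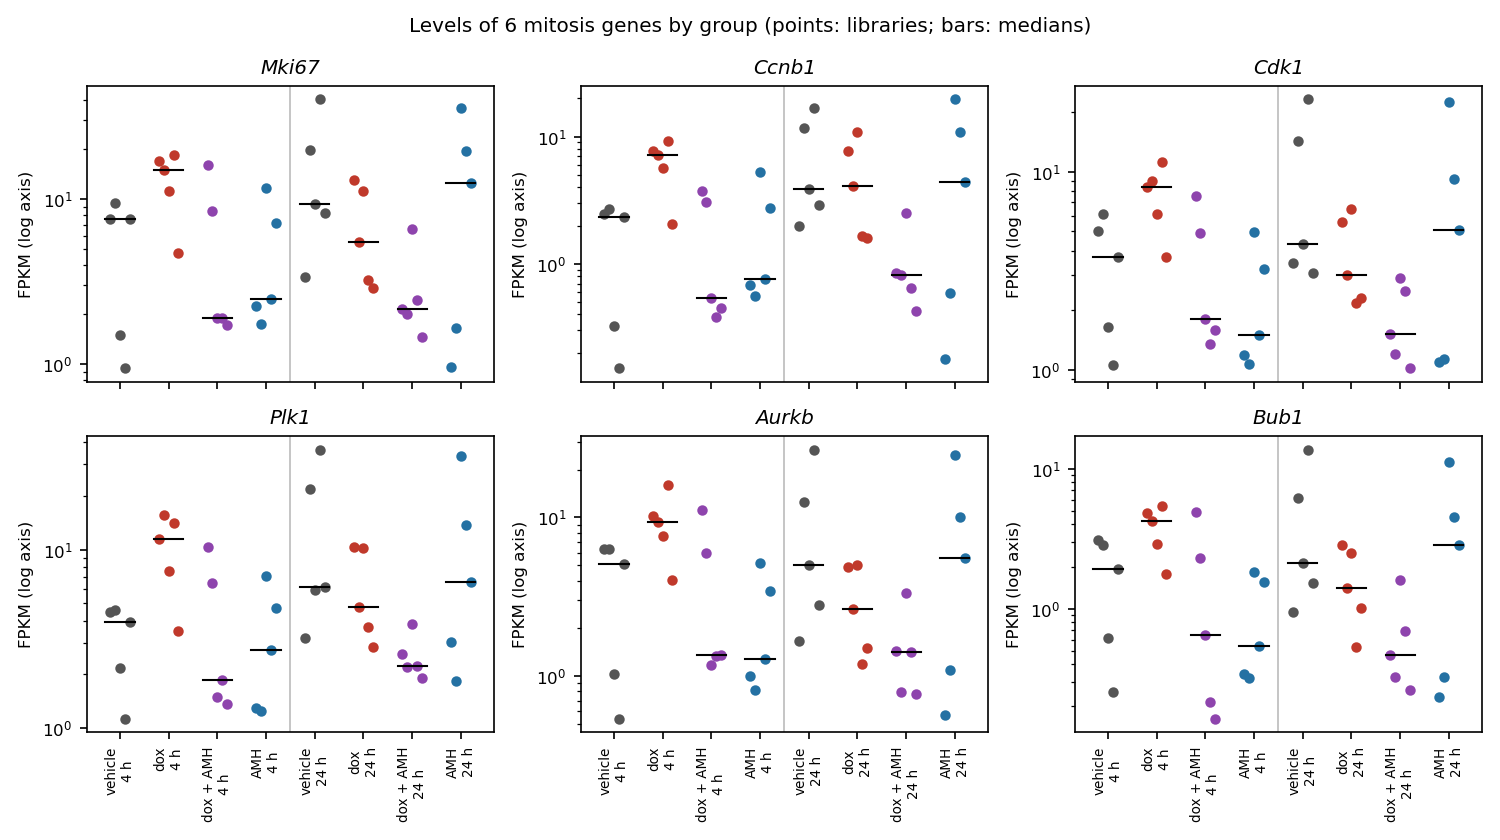
FPKM on a log axis for Mki67, Ccnb1, Cdk1, Plk1, Aurkb and Bub1 in the 8 groups (each point a library, each bar the group median, n = 5). The 4 h doxorubicin points stand high apart from 1 low library, the 24 h AMH points spread widest, and the 24 h points of doxorubicin with AMH lie low.

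When AMH was given with doxorubicin, all 42 genes had lower 4 h values than with doxorubicin alone, with a median difference of -1.10 (-1.66 to -0.51; 48.1% of all genes were lower), and again none passed the test across all genes. Unadjusted p was below 0.05 for 25 of 42, against 3.32% of all genes for that direction, while 0.00616% of all genes (1 gene) were called either way. The lowest adjusted p of the 42 was 0.706. Mki67 in the 4 h combined group was at 16.1, 8.49, 1.89, 1.90 and 1.73 FPKM: replicates 1 and 2 lay within the doxorubicin range and replicates 3, 4 and 5 below it, and the difference from doxorubicin was -1.34 ± 0.69 (adjusted p = 0.715). Ccnb1 was at 3.77, 3.05, 0.539, 0.383 and 0.446 FPKM there, with the same replicates low (-1.59 ± 0.62, adjusted p = 0.706). Cdk1 had a median of 1.79 FPKM in the 4 h combined group (1.35 to 7.53; -1.10 ± 0.53, adjusted p = 0.713) and Plk1 one of 1.87 FPKM (1.36 to 10.3; -1.28 ± 0.57, adjusted p = 0.706). Aurkb differed by -1.28 ± 0.64 (adjusted p = 0.714) and Bub1 by -1.11 ± 0.53 (adjusted p = 0.713). Against vehicle, the combined group at 4 h had a median difference of -0.010, with 17 genes higher and 25 lower, 0 called (0.394% of all genes were) and 0 at an unadjusted p below 0.05 (17.7% of all genes). The comparisons with doxorubicin at 4 h share the same 5 doxorubicin libraries.

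At 24 h the combined group had lower levels of mitosis genes than vehicle. All 42 had lower values, with a median difference of -1.43 (-2.48 to -0.78) against -0.0047 for all genes tested, of which 50.4% were lower, and 30 of 42 fell at an adjusted p below 0.05 (limma, Benjamini-Hochberg). In this comparison 34.3% of all genes were called either way and 18.6% were called lower. Unadjusted p was below 0.05 for 41 of 42, against 24.6% of all genes for that direction. Just inside and just outside the threshold were Spc25 (adjusted p = 0.0493) and Cenpe (0.0522).

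Of the entry genes, 5 of 7 fell. Ccna2, the cyclin of S phase and early mitosis, was at 4.08, 25.4, 8.74, 42.7 and 6.69 FPKM in 24 h vehicle and at 1.86, 1.81, 4.69, 2.39 and 0.957 FPKM in the combined group, a difference of -2.10 ± 0.68 (adjusted p = 0.0185). Vehicle replicates 2 and 4 were the high ones, and replicate 3 of the combined group reached into the vehicle range. Ccnb1 was at 1.97, 11.7, 3.85, 16.7 and 2.92 FPKM in vehicle and at 0.840, 0.812, 2.50, 0.643 and 0.426 FPKM in the combined group (-1.77 ± 0.62, adjusted p = 0.0271). Cdk1 was at 3.48, 14.3, 4.30, 23.2 and 3.08 FPKM in vehicle and at 1.51, 1.20, 2.91, 2.50 and 1.01 FPKM in the combined group, with no overlap (-1.58 ± 0.53, adjusted p = 0.0223). Foxm1 and Cdca3 also fell. Ccnb2 (-1.62 ± 0.73, adjusted p = 0.0797) and Cdc25c (-1.01 ± 0.49, adjusted p = 0.104) did not pass.

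All 5 kinases fell. Pbk, a kinase of dividing cells, had the largest difference of the 42 (-2.48 ± 0.72, adjusted p = 0.00999): its vehicle values were 4.71, 29.2, 6.38, 57.0 and 4.82 FPKM and those of the combined group 1.03, 0.765, 2.36, 2.63 and 0.851 FPKM. Plk1 was at 3.18, 21.7, 5.96, 36.3 and 6.20 FPKM in vehicle and at 2.60, 2.21, 3.82, 2.23 and 1.92 FPKM in the combined group (-1.68 ± 0.57, adjusted p = 0.0234). For Plk1, 1 library of the combined group reached past the lowest vehicle library. Aurkb fell by 1.63 ± 0.64 on the log2 scale (adjusted p = 0.0461), from a vehicle median of 5.02 FPKM (1.67 to 26.8) to 1.42 FPKM (0.770 to 3.32). Melk and Aurka fell by 1.85 and 1.62.

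In the checkpoint group Mad2l1 and Bub1 fell and Bub1b and Ttk did not pass. Mad2l1 had the lowest adjusted p of the 42 (0.00547): it was at 4.70, 10.8, 2.40, 13 and 2.48 FPKM in vehicle and at 1.08, 1.26, 1.73, 1.95 and 1.30 FPKM in the combined group, with no overlap (-1.40 ± 0.37). Bub1 fell by 1.45 ± 0.53 (adjusted p = 0.0332), from a vehicle median of 2.12 FPKM (0.950 to 13.7) to 0.465 FPKM (0.260 to 1.60). Bub1b differed by -0.81 (adjusted p = 0.113) and Ttk by -0.89 (adjusted p = 0.0762).

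Both genes of the anaphase-promoting complex fell, Ube2c by 2.05 and Cdc20 by 1.80. Both passenger genes fell. Cdca8, or borealin, was at 2.40, 10.2, 3.08, 15.3 and 2.67 FPKM in 24 h vehicle and at 0.898, 0.611, 2.23, 1.34 and 0.672 FPKM in the combined group, with no overlap (-1.58 ± 0.49, adjusted p = 0.0149). All 6 cytokinesis genes fell, by 1.34 (Kif20a) to 1.60 (Racgap1). Of the kinesins, 2 of 5 fell, Kif2c and Kif4, and of the kinetochore genes 3 of 6, Nuf2, Ndc80 and Spc25. In the spindle group Tpx2 (-1.88) and Hmmr (-1.53) fell, and Nusap1 and Dlgap5 did not pass. Mki67 was at 3.35, 19.8, 9.38, 40.2 and 8.29 FPKM in vehicle and at 2.15, 2.01, 6.59, 2.43 and 1.46 FPKM in the combined group, a fall of 1.84 ± 0.69 on the log2 scale (adjusted p = 0.0368). In 6 of 42 genes every library of the combined group lay below every vehicle library (Cdk1, Melk, Pbk, Mad2l1, Tpx2 and Cdca8), against 4.53% of all genes tested.

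The calls changed when libraries that stood apart were left out. Of the 24 h vehicle libraries, replicates 1, 2 and 4 are high-oestrogen and replicate 4 is also high-ovary; without the high-oestrogen libraries, which left 2 vehicle libraries against 5, all 42 genes were still lower (median -0.89), 0 were called and 0 had an unadjusted p below 0.05, with 0.78% of all genes called. Without vehicle replicate 2, or without replicate 4, the same pair of genes (Mad2l1 and Pbk) was called, where 17.9% and 23.5% of all genes were. Without the high-ovary libraries 3 were called (Cdca8, Mad2l1 and Pbk), where 29.0% of all genes were. The count was 12 without replicate 2 of the combined group, 13 without its replicate 1 and 8 without its replicate 5 (26.5%, 25.3% and 26.4% of all genes). It rose to 37, 32 and 36 without vehicle replicates 1, 3 and 5 (21.9%, 44.0% and 40.3% of all genes). The count was 4 when the fit held just these 2 groups (8.03% of all genes), 8 with no filter on low values (13.3%) and 11 with voom on the rebuilt reads (34.3%). The oestrogen-responsive score, 16 of whose 23 genes had a median of at least 1 FPKM over all libraries, ran from 2.76 to 5.62 in 24 h vehicle and from 2.46 to 3.25 in the combined group. The ovary score, with 3 of 10 markers at such a median, ran from 0.62 to 2.29 and from 1.02 to 1.18. Markers of uterine cell types were counted in the same comparison, where 34.3% of all genes were called either way and 18.6% were called lower. Of the smooth muscle markers 8 of 10 fell (median -0.54), with a score of 6.66 to 7.07 in 24 h vehicle and 6.06 to 6.31 in the combined group, which do not overlap. Of the epithelium markers 5 of 10 fell (median -0.73; scores 5.67 to 7.71 and 5.66 to 5.93). Of the endothelium markers 7 of 9 rose (median 0.55; scores 3.10 to 4.15 and 3.89 to 4.4), where 15.7% of all genes were called higher. Of the 13 uterine stroma markers 2 rose and 3 fell, near the shares of all genes. Of 20 tested oestrogen-responsive genes 12 fell (median -1.56), and of 4 tested ovary markers 1 rose. The part of any of these scores in the difference was not tested.

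**Figure D3:**
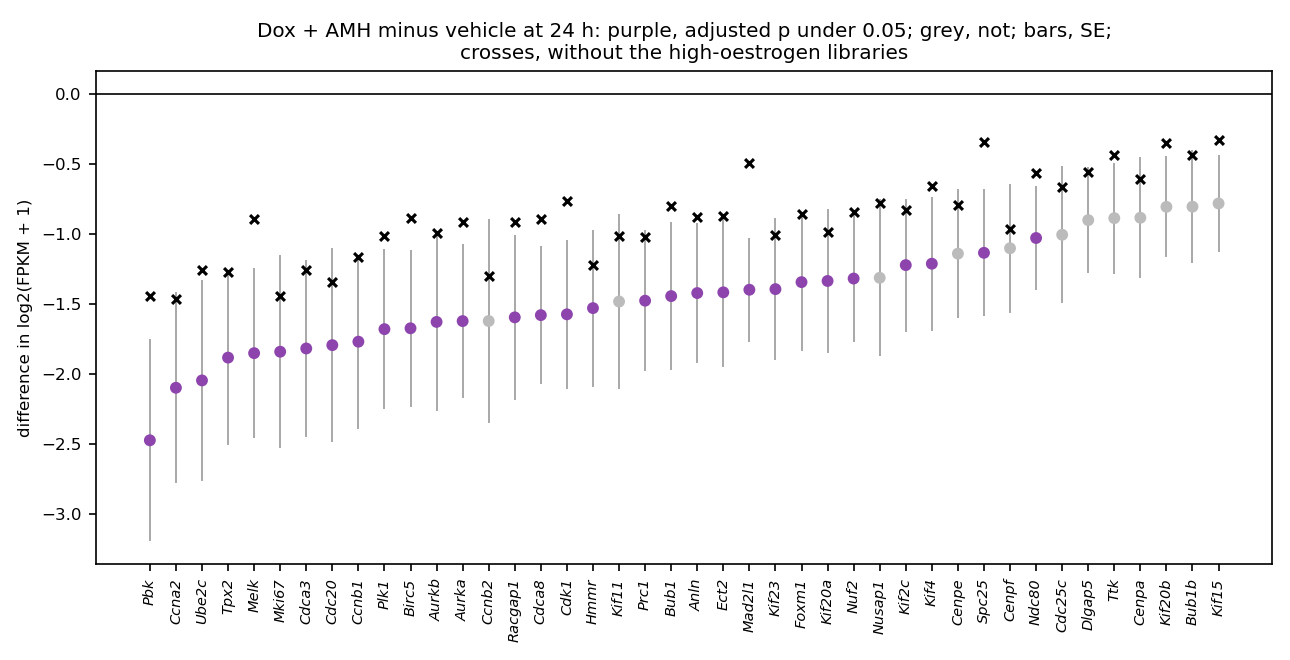
Difference in log2(FPKM + 1) between doxorubicin with AMH and vehicle at 24 h for each of the 42 mitosis genes, in order of size, with SE bars. Purple points are the 30 genes with an adjusted p below 0.05 and crosses give the difference without the high-oestrogen libraries, which is smaller and still below 0 for all 42.

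Doxorubicin alone at 24 h gave lower values than vehicle for all 42 genes as well, with a median of -0.62 (-1.53 for Pbk; 51.3% of all genes were lower), but none passed the test. In this comparison 18.4% of all genes were called, and unadjusted p was below 0.05 for 3 of the 42, against 20.0% of all genes for that direction. The lowest adjusted p was that of Mad2l1 (0.0669, difference -0.94 ± 0.37). Mki67 was at 13, 5.52, 11.2, 3.23 and 2.90 FPKM in 24 h doxorubicin (-0.86 ± 0.69, adjusted p = 0.366), and replicates 1 and 3 lay above the vehicle median of 9.38 FPKM. Ccnb1 was at 7.74, 4.09, 10.9, 1.66 and 1.60 FPKM, again highest in replicates 1 and 3. Its difference of -0.36 ± 0.62 (adjusted p = 0.695) turned to 0.31 without the high-oestrogen set of libraries, to 0.24 without the high-ovary set and to 0.012 without the high-oviduct set. The median of the 42 was -0.092, -0.10 and -0.37 without the high-oestrogen, high-ovary and high-oviduct libraries in turn. Cdk1 differed by -0.82 ± 0.53 (adjusted p = 0.255), Plk1 by -0.75 ± 0.57 (adjusted p = 0.340), Aurkb by -1.0 ± 0.64 (adjusted p = 0.247) and Bub1 by -0.80 ± 0.53 (adjusted p = 0.263).

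The combined group against doxorubicin alone at 24 h had lower values for all 42 genes (median -0.86; 51.4% of all genes were lower), with 0 called (0.333% of all genes were) and 5 at an unadjusted p below 0.05, against 5.97% of all genes for that direction. Cenpe, the motor that moves chromosomes to the spindle equator, had the lowest adjusted p (0.311, difference -1.13 ± 0.46). Mki67 differed by -0.98 ± 0.69 (adjusted p = 0.571). With a weight for each library in the fit, 16 of the 42 were called in this comparison. The 0.333% belongs to the fit without weights, and the share with weights is not given here. Against vehicle at 24 h, weights raised the share of all genes called for the combined group from 34.3% to 52.7%.

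AMH alone gave no difference in a mitosis gene that passed the test. At 4 h the median difference from vehicle was -0.19, with 10 genes higher and 32 lower, and 0 were called where 20.0% of all genes were. The lowest adjusted p was 0.130, for Mad2l1 (-0.77 ± 0.37). Mki67 was at 2.25, 1.74, 11.7, 2.48 and 7.17 FPKM in 4 h AMH, high in replicates 3 and 5. At 24 h the median was -0.38, with 0 called (0.462% of all genes were) and 0 at an unadjusted p below 0.05 (18.8% of all genes). Mki67 was then at 0.962, 1.65, 35.6, 19.6 and 12.5 FPKM, with 2 libraries below every 24 h vehicle library and replicate 3, a high-oestrogen and high-ovary library, near the highest vehicle library (-0.55 ± 0.69, adjusted p = 0.679). Without replicate 3, 1 of the 42 was called in that comparison, and the share of all genes in that fit is not given here.

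Between 4 h and 24 h, no mitosis gene passed the test in any of the 4 treatments. In vehicle all 42 were higher at 24 h (median 0.99; 52.2% of all genes were higher), with 0 called where 7.32% of all genes were, and 13 at an unadjusted p below 0.05 against 12.9% of all genes for that direction. Plk1 differed by 1.49 ± 0.57 (adjusted p = 0.105), Ccnb1 by 1.52 ± 0.62 (adjusted p = 0.128) and Mki67 by 1.31 ± 0.69 (adjusted p = 0.247). In doxorubicin 41 of 42 were lower at 24 h (median -0.64; 48.9% of all genes were lower), with 0 called (1.58% of all genes were). Mad2l1 was there the 1 gene with every 24 h library below every 4 h library, 2.79 against 2.81 FPKM at the nearest, where 2.05% of all genes were in that position. In the combined group all 42 were lower (median -0.40; 52.6% of all genes were lower), with 0 called (0.074% of all genes were). In AMH all 42 were higher (median 0.81; 50.5% of all genes were higher), with 0 called (4.01% of all genes were).

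The difference between the doxorubicin effects at 24 h and at 4 h, tested as an interaction, was below 0 for all 42 genes (51.4% of all genes), with a median of -1.71. None passed the test (0.0123% of all genes did, 2 in number), and 34 of 42 had an unadjusted p below 0.05, against 5.95% of all genes for that direction. Mki67 gave -2.20 ± 0.97 (adjusted p = 0.489), Ccnb1 -1.93 ± 0.88 (adjusted p = 0.495) and Plk1 -2.13 ± 0.81 (adjusted p = 0.487). The interaction of doxorubicin with AMH had a median of -0.98 at 4 h and -0.46 at 24 h, with 0 of 42 called at either time and 0% of all genes called. For the AMH effect at 24 h against 4 h the median was -0.21, with 0 called (0.154% of all genes were). These comparisons share libraries with those above and are not further evidence for them.

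**Figure D4:**
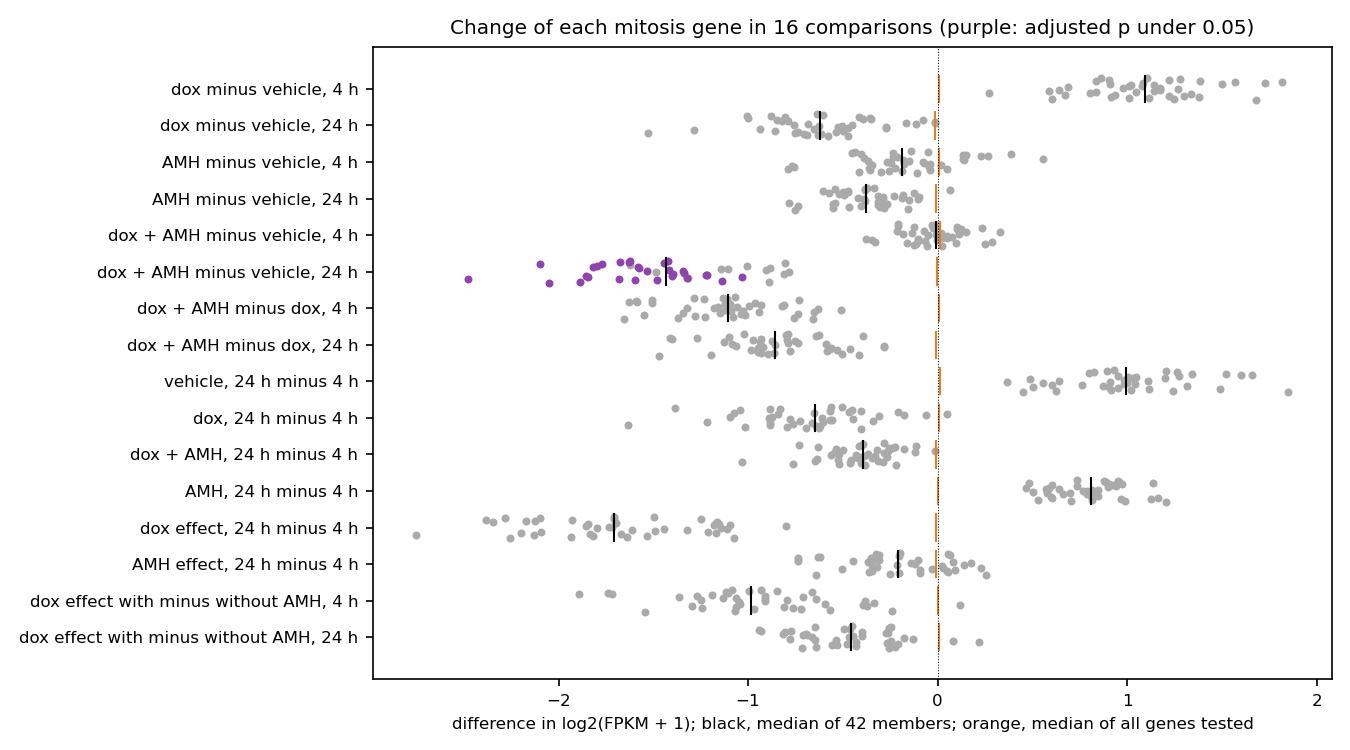
Difference in log2(FPKM + 1) of each of the 42 mitosis genes (points) in the 16 comparisons, with the median of the 42 in black and of all genes tested in orange. Purple points, adjusted p below 0.05, appear in 1 comparison, doxorubicin with AMH against vehicle at 24 h; the 42 lie to the right of 0 for doxorubicin at 4 h and to the left in all 42 cases for doxorubicin at 24 h.

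Other genes of mitosis were counted from a list of 70, of which 68 were tested. Against vehicle at 4 h, doxorubicin gave 3 called higher of 68 (0.388% of all genes were), with a list median of 0.72: Psrc1, a spindle protein (2.32, adjusted p = 0.00107), Gtse1, a partner of p53 in G2 (2.17, adjusted p = 0.0245), and Ckap2, a spindle pole protein (2.30, adjusted p = 0.0421). At 24 h, doxorubicin gave 1 higher, again Psrc1 (1.52, adjusted p = 0.0103), and 1 lower, Bub3 (-0.47, adjusted p = 0.0356), where 18.4% of all genes were called. The combined group at 24 h had 30 of 68 lower than vehicle and 1 higher, Pttg1, or securin (0.50, adjusted p = 0.00744), with a list median of -0.97, where 18.6% of all genes were called lower and 15.7% higher. Lmnb1 (-1.49) and Cep55 (-1.93) were the called members with the next lowest p. Top2a, a topoisomerase II that untangles mitotic chromosomes, was at 6.54, 28.5, 8.89, 52.8 and 6.84 FPKM in 24 h vehicle and at 2.59, 2.13, 7.33, 3.80 and 1.46 FPKM in the combined group (-1.94 ± 0.69, adjusted p = 0.0297). At 4 h Top2a did not pass for doxorubicin (1.13 ± 0.69, adjusted p = 0.540).

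The brakes of the cell cycle were 16 genes. Cdkn1a, the p53 target p21 that blocks cyclin-dependent kinases, was at 3.62, 4.60, 5.07, 4.41 and 1.88 FPKM in 4 h vehicle and at 38.6, 86.5, 79.8, 14.7 and 69.7 FPKM in 4 h doxorubicin, with no overlap (3.39, adjusted p = 6.62e-07). It was the 1 brake called in that comparison, in which the mitosis gene values were higher than in vehicle. In the 24 h combined group 3 brakes rose and 5 fell, where 34.3% of all genes were called. Cdkn1a rose by 1.63 (adjusted p = 0.00168) and Cdkn1c by 1.09, and Wee1, the kinase that keeps Cdk1 inactive, fell by 1.32 (adjusted p = 3.48e-05). Wee1 was at 14.0, 11.8, 20.0, 17.4 and 16.4 FPKM in 24 h vehicle and at 4.44, 5.35, 7.67, 6.80 and 4.65 FPKM in the 24 h combined group, with no overlap.

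Genes of DNA replication and S phase, a list of 46, had other counts than the mitosis genes in several comparisons. For AMH against vehicle at 4 h, 24 of 46 fell (median -0.97; 10.9% of all genes fell) while 0 of the 42 mitosis genes were called. For doxorubicin against vehicle at 4 h, 0 of 46 were called and the median was -0.05, beside 1.09 for the mitosis genes. For doxorubicin against vehicle at 24 h, 5 of 46 fell (median -0.87; 9.95% of all genes fell), among them Ccne1, Ccne2 and Gins3, and for the combined group 17 of 46 fell (median -0.84; 18.6% of all genes fell). The differences between the lists were not tested.

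**Figure D5:**
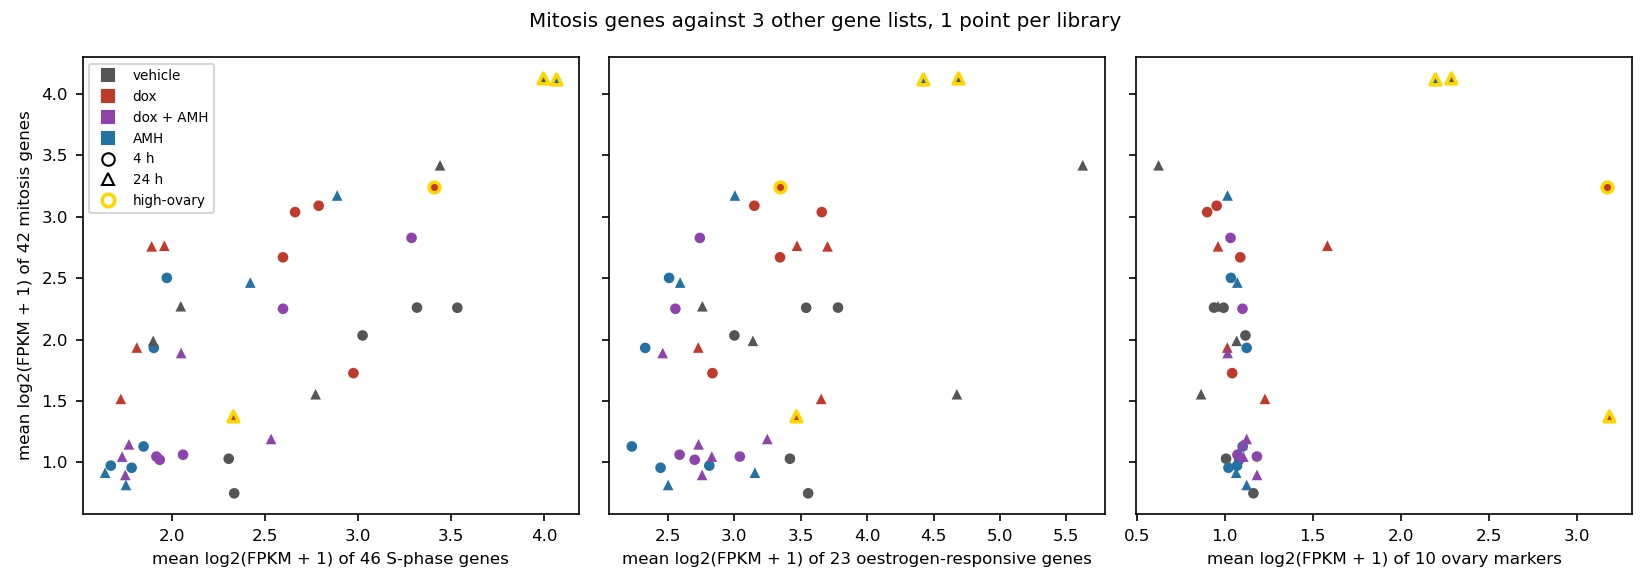
Mean log2(FPKM + 1) of the 42 mitosis genes in each of 40 libraries against the same mean of 46 S-phase genes, 23 oestrogen-responsive genes and 10 ovary markers; colour gives the treatment, shape the time and a gold edge the 4 high-ovary libraries. The highest mitosis means, 4.13 and 4.12, belong to libraries that are high on all 3 horizontal axes, and a high-ovary library also lies at 1.37.

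Reads can be assigned to the wrong gene where genes overlap or have copies, and no source used here says whether counting used strand. Of the 42 mitosis genes, 20 are overlapped by another gene of the annotation, 10 of them by a protein-coding gene. The overlapping gene had the higher mean level for Cdc20 (Elovl1, 24.4 against 14.6 FPKM), Kif4 (Pdzd11, 10.3 against 2.09), Kif20a (Cdc23, 8.82 against 4.12) and Cdca8 (9930104L06Rik, 5.48 against 3.37). It had a lower one of more than 2 FPKM for Ccna2 (Exosc9, 4.55 against 8.78), Prc1 (Rccd1, 2.48 against 3.83) and Nusap1 (Oip5, 2.16 against 5.80). A pseudogene named after the gene exists for Ccnb1, Ccnb2 and Kif4. Values of these genes are uncertain to that extent.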

How the data were processed

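A Qiagen kit was used for RNA extraction and Novogene made the 40 libraries, per the labels. Their FPKM values for 54532 genes were deposited by the authors as 1 table with gene positions and lengths. The submitters' processing notes name build mm10. Aligner, annotation and strand setting: not given in the sources used here. FPKM times gene length gave whole reads in 100% of values (tolerance 0.01 reads). Groups were taken from the titles. A filter of 1 FPKM, to be reached by 5 or more of the 40 libraries, kept 16226 genes of 35714 above 0. Values were tested as log2(FPKM + 1), a scale that understates changes of low genes, with limma 3.58.1 in R 4.3.3 (all 8 groups in 1 fit, intensity trend, 32 residual degrees of freedom), two-sided, with Benjamini-Hochberg adjustment over all genes within each of 16 comparisons. The fit was also run on simulated data, in which each gene varied independently and the SD between libraries was capped at 1. That run does not show how the fit treats genes that move together, as the mitosis genes did. All mitosis genes may be named; every library is given for Mki67, Ccnb1, Cdk1, Plk1, Aurkb or Bub1 or for the 4 called genes with the smallest p, or a range. The other lists gave up to 3 genes with the smallest p, plus Top2a, Cdkn1a and Wee1. The members and lists were chosen with earlier results of these data known. Other settings tried were 0.1 as pseudocount, a filter of 5 FPKM or none, scaling by median of ratios, a fit of just the groups compared, library weights, robust moderation, a replicate block, voom on rebuilt reads, and leaving out each library or the high-oestrogen, high-oviduct or (added after the data were seen) high-ovary libraries. Figures were drawn with matplotlib 3.10.9.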

Additional observations from a re-analysis of the deposited data

Results flagged for a closer look

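Within groups of 5, a library was looked for whose gap to the nearest other library exceeded 0.71 of the group's range (Dixon's criterion), in 88 groups of 11 items; chance gives about 1 in 20. The items were mitosis genes and their mean, which move together, so flags of the same library are not separate evidence. The criterion was met 3 times, less often than 1 in 20, each time by replicate 3 of doxorubicin with AMH at 24 h. In that library Mki67 was at 6.59 FPKM, with the nearest library at 2.43, Ccnb1 at 2.50 against 0.840, and Aurkb at 3.32 against 1.44. The library was the highest of its group for 39 of 42 mitosis genes. Without it, 30 mitosis genes were called lower than in vehicle at 24 h, 29 of which were also called with it. In that fit 27.9% of all genes were called either way.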

How the results depend on the processing

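For doxorubicin with AMH against vehicle at 24 h, 30 mitosis genes were called (brackets give the share of all genes called, here 34.3%). The count became 8 with no filter (13.3%), 4 with only the groups compared (8.03%) and 11 with voom on rebuilt reads (34.3%). Without the high-oestrogen, high-oviduct and high-ovary libraries it was 0 (0.78%), 17 (40.7%) and 3 (29.0%). Single libraries left out gave 2 to 37 (17.9% to 44.0%). It was 29 with a pseudocount of 0.1 (35.1%), 29 with median-of-ratios scaling (33.8%), 30 with robust moderation (34.3%) and 25 with the 5 FPKM filter (41.3%). Pbk stayed called in all of these except without the high-oestrogen libraries (adjusted p = 0.498), and every mitosis gene tested stayed lower (30 with the 5 FPKM filter, 37 with only the groups compared). For the combined group against vehicle at 24 h, library weights gave 39 calls, where 52.7% of all genes were called against 34.3% in the main fit. Where the main count was 0, they gave 16 for the combined group against doxorubicin at 24 h and 2 for vehicle over time. They also gave 1 each for doxorubicin at 24 h, AMH at 4 h, AMH at 24 h and the doxorubicin effect over time. The shares of all genes with weights in these other comparisons are not given here, so the rises cannot be read as particular to mitosis genes. A count of 0 became 1 for AMH at 4 h and for doxorubicin over time with only the groups compared, and for AMH at 4 h without the high-ovary libraries. With single libraries left out the count was 0 to 1 for doxorubicin at 24 h, AMH at 24 h and AMH over time. The shares of all genes in these fits are not given here either, so these counts cannot be read as particular to mitosis genes. Medians near 0 changed sign: that of the combined group at 4 h (-0.010) was 0.13 without the high-oestrogen libraries and -0.33 to 0.14 with single libraries left out, that of the AMH effect over time (-0.21) was 0.031 without the high-oviduct libraries and -0.69 to 0.19, that of AMH at 24 h (-0.38) -0.82 to 0.017, and that of the interaction at 24 h (-0.46) -0.84 to 0.018. Ccnb1 for doxorubicin at 24 h (-0.36) was 0.31, 0.012 and 0.24 without the high-oestrogen, high-oviduct and high-ovary libraries. The causes of these moves were not tested. The replicate block left 27 calls for the combined group against vehicle at 24 h (34.5% of all genes). Deviations of same-numbered libraries had a mean correlation of 0.0287 over 140 pairs (highest 0.441), with 46 over 0.1. Libraries of other numbers had a mean of -0.00688 over 560 pairs (highest 0.631), with 145 over 0.1. A mean cannot exclude pairing or a batch shared by some libraries of the same number.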

Other observations

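The balance between the mitosis genes and the S-phase genes differed between libraries. The mean log2(FPKM + 1) of the 42 mitosis genes minus that of the 46 S-phase genes was -1.59 to -0.99 in the 5 libraries of 4 h vehicle, and in 4 h doxorubicin it was 0.30, 0.37, 0.07, -0.16 and -1.25 in replicates 1 to 5. In 4 of 5 doxorubicin libraries it thus lay above every vehicle library, and replicate 5 lay within the vehicle range. At 24 h it was -1.22, -0.02, 0.22, 0.13 and 0.09 in vehicle, where replicate 1 stood low, and 0.87, 0.12, 0.80, -0.21 and -0.96 in doxorubicin. In the combined group it was -1.0 to -0.35 at 4 h and -1.34 to -0.16 at 24 h.

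Replicate 1 of 24 h vehicle was high in oestrogen-responsive genes (1.65 above the median score of all libraries) and lowest of its group for 37 of 42 mitosis genes. Replicates 2 and 4 of that group were high in oestrogen-responsive genes (2.60 and 1.66 above) and had mitosis gene means of 3.42 and 4.13, against 1.56 in replicate 1.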
